A study of Mus musculus with 2 samples.

Results

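Oxidative phosphorylation subunit genes encode the proteins of the respiratory chain and of ATP synthase in the inner mitochondrial membrane, and their promoters were examined here in hippocampal chromatin. The members were the protein-coding autosomal genes of the GENCODE M21 annotation whose symbols name a subunit of complex I (Nduf), complex II (Sdh), complex III (Uqcr), complex IV (Cox4 to Cox8) or ATP synthase, also called complex V (Atp5). The rule found 82 gene records among 20722 protein-coding autosomal genes, 35 in complex I, 4 in complex II, 8 in complex III, 17 in complex IV and 18 in complex V. They carry 81 symbols, because Atp5o has 2 records, the second a long record with a single transcript that starts inside Atp5o. The rule used symbols and no measured value. It does not take Cyc1, the genes of the mitochondrial genome or genes on the X chromosome.

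Complexes I to IV pass electrons from NADH and succinate to oxygen and, except for complex II, pump protons across the inner membrane. ATP synthase uses the resulting gradient to make ATP, on which neurons depend heavily. Most subunits are encoded in the nucleus, and some complex IV subunits exist as a ubiquitous isoform and as an isoform known from muscle, heart, lung or testis.

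The measurement was DNase-seq, which sequences the ends left by DNase I, an enzyme that reaches DNA in nuclei mainly where nucleosomes are absent. The series held 2 samples of 1 group, untreated as far as the labels say, from hippocampus of male B6CASTF1/J mice aged 2 months, a cross of B6 and CAST mice whose 2 alleles were pooled on the mm10 reference. The labels give biological replicates 1 and 2 with the same donor entry and do not say whether they came from separate animals, and they name a layer of the hippocampus without saying which. With 1 group no condition could be compared and no test was run, because genes are not replicates. The main counts over the members therefore stand beside the same share over all protein-coding autosomal genes.

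Replicate 1 held 132685 peaks and 255536 footprints, and replicate 2 held 59880 peaks and 111355 footprints. Sequencing depth was not stated in the sources used here. Heights within a replicate were whole multiples of a step of 0.00535 in replicate 1 and 0.0108 in replicate 2, whose reciprocals are 187 and 93.0. If a step stands for a single read or cut scaled to depth, replicate 1 was the deeper library, which is an inference from the values. Among genes chosen to mark cell types, 5 of 7 neuronal markers were open in both replicates, against 1 of 4 astrocyte, 2 of 4 oligodendrocyte, 0 of 4 microglial and 0 of 4 vascular markers. The median heights of the neuronal markers with a peak were 1.79 and 2.12, and Slc17a7 and Prox1 had a peak in replicate 1 alone. The astrocyte marker Slc1a2 had heights of 2.19 and 1.59. A promoter open in few cells of a tissue and a promoter weakly open in many cannot be told apart in such libraries.

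A promoter was called open where peaks of both replicates overlapped by at least 1 bp and their overlap lay within 500 bp of the start of a protein-coding transcript. By this rule 71 of the 82 members (86.6%) were open, against 58.2% of all protein-coding autosomal genes. A peak of replicate 1 lay in the window of 73 members, against 64.6% of all genes, and a peak of replicate 2 in that of 71 members, against 59.6%. In the shorter of the 2 peak lists deposited for each sample, 71 members were again open, while the share of all genes was 52.3%. The 11 members that were not open fall into 8 tissue-restricted isoforms and 3 other records, Ndufa13, Atp5f1 and the long Atp5o record. Of the 74 members outside the tissue-restricted isoforms, 71 were open.

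The height of a promoter was the highest signal value, in the authors' units, among the peaks of a replicate in its window. Paired values stand in the order replicate 1, replicate 2. The members with a peak had median heights of 5.77 and 3.17, against 3.79 and 2.49 for all genes with a peak. Ranked among all genes with a promoter peak, the median member lay at percentiles 73.3 and 69.8. In replicate 1, 59 of 73 members reached a percentile of 50 or more, and in replicate 2, 56 of 71 did. All 71 open members were lower in replicate 2 than in replicate 1, with a median log2 ratio of -0.86. Over all genes with a peak in each replicate the median ratio was -0.71, with 10634 genes lower and 1580 higher. The ratio was nearest to 0 at Ndufs4 (-0.20) and Ndufa10 (-0.26), and farthest from it at Ndufa2 (-1.56) and Ndufb10 (-1.41), all of them complex I subunits. At Ndufs4 the heights were 5.62 and 4.87, and at Ndufa2 they were 6.09 and 2.07, so that 2 promoters close to each other in replicate 1 stood far apart in replicate 2.

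**Figure D1:**
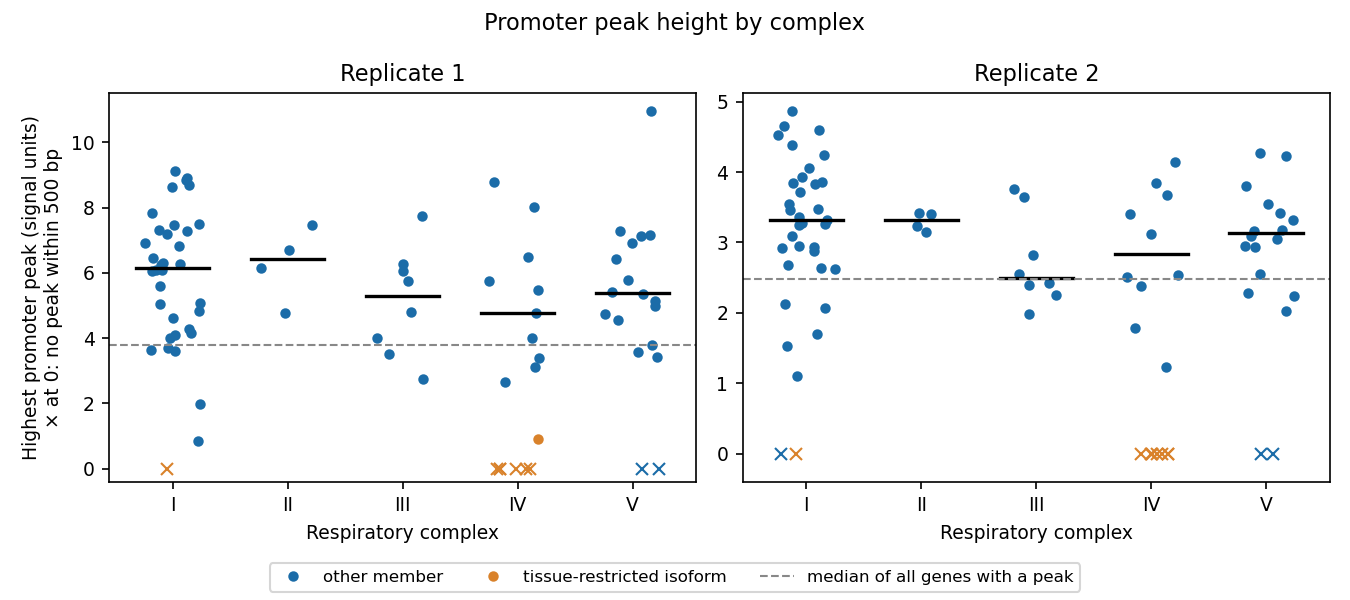
Height of the highest promoter peak of each member (vertical axis, authors' signal units) by respiratory complex (horizontal axis), replicate 1 on the left and replicate 2 on the right, on different scales. Points are genes, crosses at 0 are members without a peak within 500 bp, black bars are medians of the members with a peak and the dashed line is the median of all genes with a peak (3.79 and 2.49); the medians of complexes I, II, IV and V lie above the line in both panels, and the tissue-restricted isoforms lie at 0 except Cox7a1 in replicate 1.

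Complex I, which takes electrons from NADH, had 33 of 35 members open (94.3%), against 58.2% of all protein-coding autosomal genes. Its median heights were 6.16 and 3.32. Its 7 nuclear core subunits, which carry the NADH site and the iron-sulfur clusters, were all open by this rule, with medians of 6.26 and 3.48. Of its 27 accessory subunits by symbol, with Ndufa4 and without the isoform Ndufa4l2, 26 were open, with medians of 6.09 and 3.30. Core and accessory subunits thus had overlapping ranges, from 3.62 to 8.86 for the core and from 0.85 to 9.12 for the accessory genes in replicate 1. The accessory subunit gene Ndufa8 had the highest mean rank in the complex, with heights of 9.12 and 4.53, at percentiles 95.6 and 93.5. Ndufc1, another accessory subunit gene, had heights of 8.62 and 4.24, and Ndufb5, also accessory, had 7.18 and 4.60. All of these lay in the upper part of the distribution in each replicate. Ndufc2 had the lowest rank among the open members, with heights of 1.98 and 1.10 at percentiles 28.8 and 13.1, and it was not open when the window was narrowed to 200 bp.

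Complex II, which oxidises succinate and also serves the citric acid cycle, had all 4 genes open, against 58.2% of all genes. Sdha, the flavoprotein that binds succinate, had heights of 7.48 and 3.24. Sdhb, the iron-sulfur subunit, had heights of 6.16 and 3.40. Of the membrane anchors, Sdhc had heights of 6.70 and 3.42, and Sdhd had 4.77 and 3.15. The 4 genes spanned 4.77 to 7.48 in replicate 1 but only 3.15 to 3.42 in replicate 2, and all 4 lay above the medians of all genes.

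Complex III, which passes electrons from ubiquinol to cytochrome c, had all 8 member genes open, against 58.2% of all genes. Its median heights were 5.28 and 2.49. Uqcrfs1, which encodes the Rieske iron-sulfur protein, was highest with 7.73 and 3.75. Uqcrq, a small subunit gene, followed with 6.28 and 3.65, and Uqcrc1, which encodes a core protein, had 5.77 and 2.83. Uqcrb, which encodes a small subunit that takes part in ubiquinone binding, was lowest with 2.74 and 1.99. In replicate 2 the median of this complex was at percentile 50.05, and 4 of its 8 genes reached a percentile of 50 or more.

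Complex IV, cytochrome c oxidase, had 10 of 17 genes open (58.8%), near the 58.2% of all protein-coding autosomal genes. The 7 genes that were not open were its tissue-restricted isoforms. Cox6c was highest, with heights of 8.79 and 4.14, and by mean percentile the ubiquitous isoforms Cox6a1 (8.03 and 3.68) and Cox8a (5.75 and 3.41) came next. The order by height differed between replicates: Cox5b reached 6.50 in replicate 1 and Cox5a 3.84 in replicate 2. Cox6b1, the ubiquitous form of a subunit at the dimer interface, was lowest by mean percentile with 3.13 and 1.23, although Cox7c was lower in replicate 1 at 2.66. The catalytic subunits of this complex are encoded by the mitochondrial genome and are not among these genes. Cox7a2l, whose product is known from supercomplex assembly, met the symbol rule and had heights of 3.40 and 2.51.

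ATP synthase had 16 of 18 records open (88.9%, against 58.2% of all genes), with median heights of 5.38 and 3.13. All 5 genes of its catalytic F1 head were open, from 3.79 at Atp5a1, which encodes the alpha subunit, to 7.30 at Atp5b, which encodes the catalytic beta subunit, in replicate 1. In replicate 2 the same 2 genes differed little, at 3.16 and 3.17. Atp5mpl, which encodes a small membrane-bound subunit, was the highest of all members in replicate 1, with heights of 10.95 and 4.27 at percentiles 98.7 and 90.7. Atp5d, which encodes the delta subunit of the head, had heights of 7.15 and 3.80. Atp5l, which encodes subunit g, was lowest among the open genes of the complex with 3.42 and 2.02. Atp5s, which encodes a factor associated with the enzyme, also met the rule, with heights of 4.55 and 3.04.

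The c-ring of ATP synthase, the rotor that protons turn, is built from a peptide encoded by 3 genes that differ in their targeting sequences. Their promoters were open in both replicates, with heights of 5.41 and 2.94 at Atp5g1, 6.93 and 4.23 at Atp5g2, and 5.15 and 2.95 at Atp5g3. Atp5g2 was the highest of these in each replicate, and Atp5g1 and Atp5g3 lay close to each other. Atp5g2 also had the most footprints of any member, 13 in each replicate, in a window of 3009 bp around its 4 starts.

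The contrast between isoforms was a contrast of presence. All 6 ubiquitous isoforms with a tissue-restricted partner among the members were open, and 0 of the 8 tissue-restricted isoforms were. The share over all protein-coding autosomal genes was 58.2%. The ubiquitous Cox4i1 had heights of 4.00 and 2.39, Cox7a2 had 5.47 and 3.12, and Ndufa4 had 4.17 and 2.95. Ndufa4 was first assigned to complex I, as its name says, and is now placed in complex IV. With Ndufa4 and Ndufa4l2 counted in complex IV, 32 of 33 members of complex I and 11 of 19 of complex IV were open. Against the ubiquitous isoforms, Cox4i2, a lung isoform, had no peak within 500 bp in either replicate. The same held for Cox6a2 and Cox8b, which are known from heart and skeletal muscle, for Cox6b2, Cox7b2 and Cox8c, which are known from testis, and for Ndufa4l2, which is induced by low oxygen.

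Cox7a1, an isoform of heart and muscle, had a peak of height 0.90 at percentile 13.0 in replicate 1, with 2 footprints, and none in replicate 2. Intervals with a deposited false discovery rate below 0.05 covered 242 bp of its window in replicate 1 and 0 bp in replicate 2. At Cox6b2 they covered 26 bp in replicate 1, with a lowest value of 0.0440, and 0 bp in replicate 2. At the other 6 tissue-restricted isoforms they covered 0 bp in both. The nearest shared peak lay from 1887 bp away at Ndufa4l2 to 30954 bp away at Cox6a2. The one near Ndufa4l2, upstream of its start, was tall, with heights of 8.11 and 4.20, and its centre lay 9385 bp from the nearest start of any other protein-coding gene.

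Muscle and testis, in which some of these isoforms are used, were represented by marker lists. No list stood for lung, named above for Cox4i2, or for low oxygen, named for Ndufa4l2. Of 5 markers of skeletal and heart muscle, 0 were open in both replicates and 2 had a low peak in replicate 1, 0.55 at Tnnt2 and 0.90 at Myl2. Of 4 testis markers, 0 had a peak in either replicate.

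**Figure D2:**
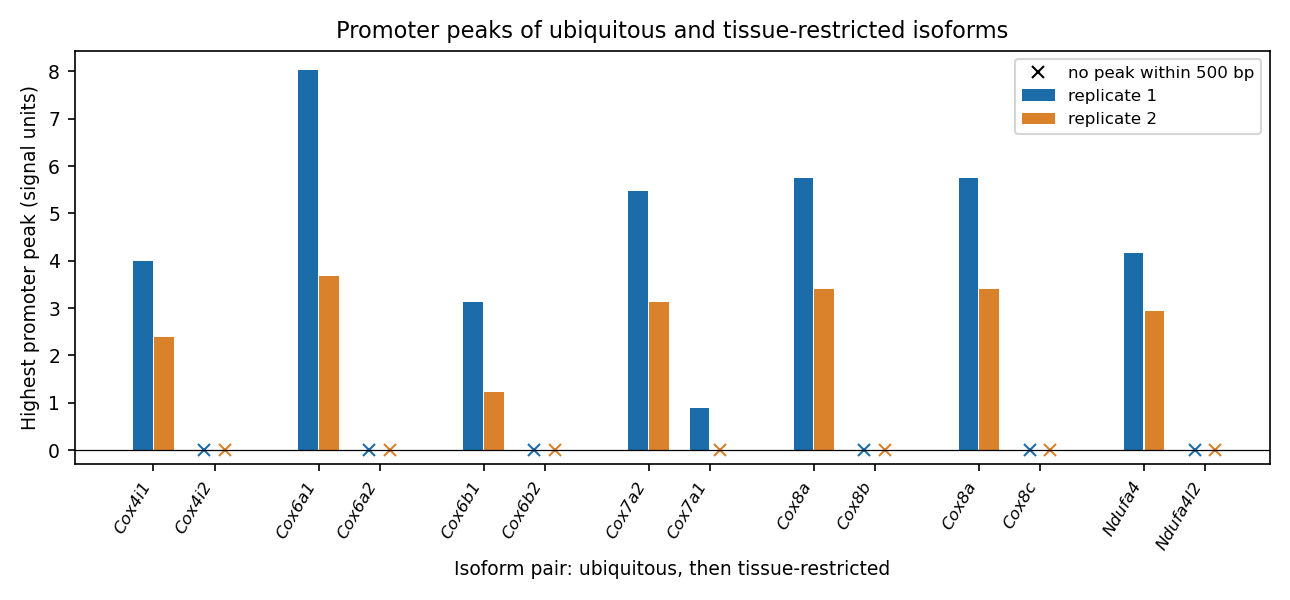
Height of the highest promoter peak (vertical axis, authors' signal units) for 7 pairs of a ubiquitous and a tissue-restricted isoform (horizontal axis; Cox8a appears with both of its partners). Blue bars are replicate 1, orange bars are replicate 2 and crosses mark no peak within 500 bp; every ubiquitous isoform shown has a bar in each replicate, and the tissue-restricted isoforms have none except Cox7a1, at 0.90 in replicate 1.

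The promoters of the 2 kinds of isoform stood apart in base composition, which is given as a description with no test. Over 250 bases before to 50 after each start, the ratio of observed to expected CpG had a median of 0.838 in the 6 ubiquitous isoforms, 0.374 in the 8 tissue-restricted isoforms, 0.717 in all members and 0.528 in all genes. Median GC content was 55.0% and 53.0% in the ubiquitous and restricted isoforms and thus lay closer together than the CpG ratios. In the 150 bases upstream of the start the groups overlapped, with 7 to 24 CpG pairs in the ubiquitous and 1 to 12 in the tissue-restricted isoforms. These stretches are shown for the pairs Cox8a with Cox8b and Cox7a2 with Cox7a1, which were picked after their values were seen as pairs that stand far apart, and for Cox4i2, the tissue-restricted isoform with the most CpG pairs. They were read from the GRCm38 genome 5′ to 3′ along the gene, with matches of the CCAAT box on either strand in capitals.
Cox8a, chr19:7217617-7217766, minus strand: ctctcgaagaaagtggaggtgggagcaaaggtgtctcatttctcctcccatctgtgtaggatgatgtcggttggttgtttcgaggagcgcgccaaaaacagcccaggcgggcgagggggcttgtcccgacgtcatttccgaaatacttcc
Cox8b, chr7:140900447-140900596, minus strand: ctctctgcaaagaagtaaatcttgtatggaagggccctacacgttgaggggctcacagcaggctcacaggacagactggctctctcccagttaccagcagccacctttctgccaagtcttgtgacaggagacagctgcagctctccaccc
Cox7a2, chr9:79759879-79760028, minus strand: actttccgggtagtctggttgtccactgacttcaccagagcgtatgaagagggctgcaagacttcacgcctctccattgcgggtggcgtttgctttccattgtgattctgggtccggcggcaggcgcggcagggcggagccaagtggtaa
Cox7a1, chr7:30183994-30184143, plus strand: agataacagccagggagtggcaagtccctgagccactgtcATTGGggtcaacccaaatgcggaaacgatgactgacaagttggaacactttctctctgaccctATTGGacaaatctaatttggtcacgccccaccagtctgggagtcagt
Cox4i2, chr2:152754023-152754172, plus strand: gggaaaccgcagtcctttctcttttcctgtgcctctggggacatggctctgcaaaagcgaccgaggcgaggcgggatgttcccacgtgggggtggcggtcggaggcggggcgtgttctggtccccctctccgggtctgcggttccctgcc
These stretches held 10 CpG pairs at Cox8a and 1 at Cox8b, both at a GC content of 55.3%, and 10 at Cox7a2 against 3 at Cox7a1. Cox4i2 held 12, more than Cox8a or Cox7a2 and fewer than the 24 of its partner Cox4i1. The tissue-restricted Cox8c held 8 and Cox6b2 held 7, beside 9 at Cox6b1 and 7 at Ndufa4. The capitals in Cox7a1 mark 2 matches of the CCAAT box. It stood in 51.3% of all promoters over the longer stretch of 250 bases before to 50 after each start. None of the other motifs searched below stood in these 5 stretches.

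The 3 remaining members that were not open had a shared peak near them or were a second record of an open gene. Atp5f1, which encodes subunit b of the stator, has coding starts with no peak within 500 bp in either replicate. A shared peak with heights of 5.85 and 3.11 lay inside the gene at chr3:105959181-105959480 (mm10), 619 bp from the nearest coding start at position 105960099, and it held 6 and 4 footprints. Its centre lay 55 bp from the start of a transcript of Atp5f1 that is not annotated as coding, 68 bp from the RefSeq start of the gene, and 38 bp from the start of Wdr77 on the other strand. With starts of all transcripts or RefSeq starts, Atp5f1 was open.

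Ndufa13, which encodes an accessory subunit of complex I also studied in cell death, had a peak of 0.85 in replicate 1 and none in replicate 2 in its window around position 69902558 of chromosome 8. Tall shared peaks flanked it, 758 bp downstream with heights of 6.70 and 4.10 and 583 bp upstream with heights of 9.33 and 5.90. The downstream peak had its centre 329 bp from the RefSeq start of the gene and 493 bp from the start of Tssk6. With RefSeq starts, or with a window of 1000 bp, Ndufa13 was open. The long Atp5o record had no peak and no interval below a false discovery rate of 0.05 in its window. Its nearest shared peak, 4539 bp upstream, was the promoter peak of Atp5o itself, the gene for the stator subunit OSCP, with heights of 4.995 and 2.238.

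**Figure D3:**
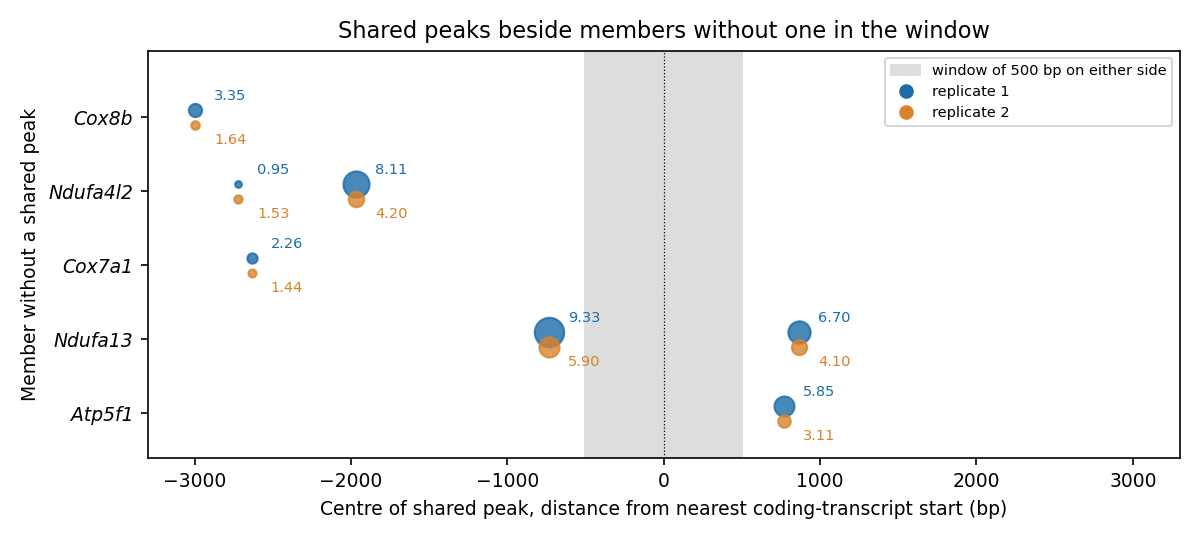
Shared peaks within 3000 bp of the coding starts of members without an open promoter that have such peaks, placed by the distance of the peak centre from the nearest coding-transcript start (horizontal axis, bp, negative upstream), with genes on the vertical axis. Circle size and the printed value give the height in replicate 1 (blue) and replicate 2 (orange), and the grey band is the window of 500 bp; at Atp5f1 and Ndufa13 tall peaks stand just outside the band, while at Cox7a1 and Cox8b the nearest peaks lie further away.

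Many members have the start of a gene on the opposite strand nearby. Another protein-coding gene started within 1000 bp of 29 of the 82 members (35.4%), against 13.1% of all genes. At each of these 29 members at least 1 such gene lay on the opposite strand, which held for 11.7% of all genes. The order of the 2 starts was not checked, so the genes of a pair need not point away from each other. Among open promoters the shares were 38.03% of the members and 19.8% of all open genes. Such pairs numbered 15 in complex I, 3 in complex II, 3 in complex III, 1 in complex IV and 7 in complex V. Partners among the first 10 open members in alphabetical order include Haus1 (Atp5a1), Kin (Atp5c1), Cbarp (Atp5d), Kctd2 (Atp5h), Gabpa (Atp5j), Emc8 and Gm27021 (Cox4i1), Vmac (Ndufa11), Ik (Ndufa2) and Phf14 (Ndufa4). Gabpa encodes a subunit of an ETS factor known to act on respiratory genes, and its promoter and that of Atp5j had the same highest peak values, 3.57 and 2.28. Picked after their partners were seen, Ndufb5 stands beside Mrpl47 and Ndufs6 beside Mrpl36, both mitochondrial ribosomal protein genes. Sdhd stands beside Timm8b, a mitochondrial import gene.

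Peaks in such a region cannot be assigned to either gene of the pair. The 44 open members without a neighbouring start had median heights of 6.07 and 3.25, at median percentiles 76.1 and 71.7, and all open genes without a neighbour had 3.83 and 2.36, at 50.4 and 46.3. The 27 open members with a neighbour had median heights of 5.08 and 3.15, close to the 5.34 and 3.08 of all open genes with a neighbour. The gap to the corresponding background was therefore larger for members without a neighbouring start than for members with one, a difference that was not tested.

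Footprints are short stretches inside open chromatin that are protected from the enzyme. They were present in the window in both replicates at 69 members (84.1%), against 56.2% of all genes. Among open promoters alone these shares were close, at 97.2% of the 71 open members and 95.8% of all open genes. Footprints of the replicates overlapped each other at 62 of 82 members and 9941 of 20722 genes. Among open promoters this held at 62 of 71 members and 9908 of 12064 genes. The open members held 402 and 326 footprints, with a median of 6 and 4 per gene, beside 5 and 4 for all open genes. After Atp5g2, the largest sums over the replicates were 18 at Ndufv2, a core subunit gene of the NADH-binding module, and 17 each at Atp5l, Ndufs1 and Ndufs7. Their windows ranged from 1001 bp at Atp5l to 2066 bp at Ndufv2, and the counts were not scaled to window length. Ndufs1 encodes the largest core subunit of complex I and Ndufs7 the subunit with its last iron-sulfur cluster. Of the open members, Cox6b1 had no footprint in replicate 2, and Atp5e, which encodes the epsilon subunit, had none in replicate 1 in spite of heights of 7.18 and 3.31.

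The footprints of the members lay close to the start. Within 100 bp of the nearest start lay 65.92% and 65.95% of their footprints, against 55.5% and 53.4% at all open genes. The centre of the highest peak lay within 100 bp of a start at 61 of the 71 open members (85.9%) in replicate 1 and at 52 (73.2%) in replicate 2, against 70.4% and 60.8% of all open genes. The median length of a footprint was 11 and 9 bp in the members and 10 and 9 bp at all open genes. Median peak width was 200 and 300 bp in the members, against 220 and 300 bp at all genes.

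**Figure D4:**
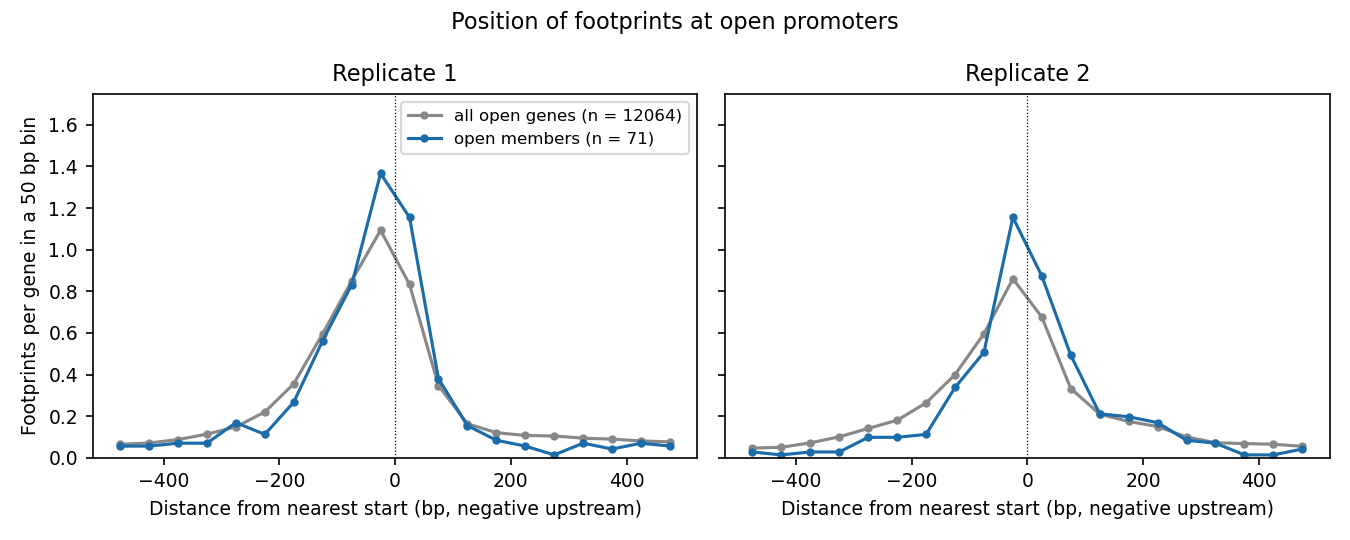
Number of footprints per gene (vertical axis) in bins of 50 bp by distance from the nearest start (horizontal axis, bp, negative upstream), replicate 1 on the left and replicate 2 on the right. Blue is the 71 open members and grey all 12064 open genes; the members lie above the grey line in the bins on either side of the start and at or below it in most bins further out.

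Factors with known roles at respiratory genes bind short sequences, and 7 such sequences were searched as exact letters on either strand. They were NRF1 (CGCATGCG, nuclear respiratory factor 1), an ETS site (ACCGGAAGT), YY1 (AAGATGGCG), an SP or GC box (GGGGCGGG), CRE (TGACGTCA), an ESRR site (TCAAGGTCA) and the CCAAT box (CCAAT). None of these sequences contains another, though matches may overlap in the genome. In promoters from 250 bases before to 50 after a start, NRF1 stood in 11.0% of members and 2.95% of all genes, YY1 in 13.4% and 2.81%, CRE in 6.10% and 3.08%, and ESRR in 6.10% and 0.825%. The ETS site stood in 0 of 82 members and 1.76% of all genes. The GC box stood in 25.6% and 28.4%, and the CCAAT box in 45.1% and 51.3%. A match is a description of the sequence and not a measured binding site, and for ETS factors these letters are only one of the forms they bind.

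A match was placed in a footprint where it lay inside a footprint extended by 10 bp on each side, in both replicates. NRF1 matches met this at 9 members (11.0%, against 2.48% of all genes), YY1 matches at 4 (4.88% and 0.811%) and CRE matches at 4 (4.88% and 2.18%). For ETS and ESRR the count was 0, and for ESRR it was also near 0 over all genes, at 0.00483%. In total 17 members held at least 1 of these 5 motifs in a footprint of both replicates, 23.9% of the open members against 9.81% of all open genes, and 0 members held more than 1 kind. The GC box met the same rule at 9 members (11.0%, against 9.53% of all genes) and the CCAAT box at 6 (7.32% and 6.63%). At this setting these shares are near those of all genes. Among open promoters both were lower in the members, at 12.7% against 16.3% of all open genes for the GC box and 8.45% against 11.4% for the CCAAT box. The shares of open members and of all open genes were 12.7% and 4.25% for NRF1, 5.63% and 1.39% for YY1, and 5.63% and 3.75% for CRE. With footprints not extended, the count of 17 fell to 8 (9.76%, against 3.28% of all genes, down from 5.72%). Without extension the NRF1 count was 5, and the YY1 count was 0, so each YY1 match placed in a footprint rests on the extension. With an extension of 20 bp, or without replicate 1, the YY1 count was 7. The GC box count was 3 without extension and 12 with 20 bp, and the CCAAT count was 0 and 12. Without replicate 1 these counts were 10 and 9. Without replicate 2 the GC box count was 15 (18.3%, against 17.7% of all genes) and the CCAAT count 17 (20.7%, against 13.9%).

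The sites at the 9 members with NRF1 are shown with 10 bases on either side, on mm10 and 5′ to 3′ along the gene, because they are the most frequent of the 5 motifs in footprints. The capitals mark the motif, which reads the same on both strands.
Ndufa11, chr17:56717693-56717720, plus strand: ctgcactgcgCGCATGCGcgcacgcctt
Ndufa8, chr2:36049330-36049357, minus strand: tcgctggagaCGCATGCGcagatggtac
Ndufs8, chr19:3912523-3912550, minus strand: caccctcaggCGCATGCGctgcctcgcc
Uqcr11, chr10:80406809-80406836, minus strand: atcgccttcaCGCATGCGctatacgtct
Uqcrc1, chr9:108936669-108936696, plus strand: ctccgctctgCGCATGCGcagcgcggct
Cox6a1, chr5:115349102-115349129, minus strand: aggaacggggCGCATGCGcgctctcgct
Cox6c, chr15:35938170-35938197, minus strand: tcgactcttgCGCATGCGtgctgctgga
Atp5g2, chr15:102671071-102671098, minus strand: gctccggccgCGCATGCGcagagccttc
Atp5k, chr5:108434431-108434458, minus strand: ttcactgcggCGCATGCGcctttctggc
They come from complexes I, III, IV and V, with none in complex II, and lay from 135 bp upstream to 62 bp downstream of the nearest coding start. Ndufs8 encodes a core iron-sulfur subunit, Uqcr11 and Uqcrc1 belong to complex III, Cox6a1 and Cox6c to complex IV, and Atp5g2 and Atp5k to ATP synthase, where Atp5k encodes subunit e. Cox6a1, Cox6c and Ndufa8 were also among the tallest promoters named above, while Ndufs8 had heights of 3.63 and 2.64, just below and just above the medians of all genes. At open promoters with a match anywhere in the window, 9 of 11 members (81.8%) had it in a footprint of both replicates, and 68.7% of all open genes with a match did.

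The 4 members with CRE, the palindrome bound by CREB and ATF factors, had the following sites.
Ndufa10, chr1:92473808-92473835, minus strand: cactcagtggTGACGTCAtggcagcgcg
Ndufb2, chr6:39592541-39592568, plus strand: tgcgacgcagTGACGTCAcgggccggga
Uqcrfs1, chr13:30545328-30545355, minus strand: ggcgtcgcgcTGACGTCAcaaaccctgc
Atp5d, chr10:80141382-80141409, plus strand: ggcagggtgaTGACGTCAtgaccgagag
The 4 with YY1 had the sites below, read along the gene with the match in capitals. At Uqcrh and Atp5h the motif stands on the opposite strand, so the capitals are its reverse complement.
Ndufc1, chr3:51408915-51408943, minus strand: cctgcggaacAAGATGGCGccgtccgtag
Ndufs7, chr10:80249463-80249491, plus strand: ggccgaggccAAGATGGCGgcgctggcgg
Uqcrh, chr4:116075350-116075378, minus strand: acccgcgggcCGCCATCTTgaagaggtca
Atp5h, chr11:115420155-115420183, minus strand: gctgcagctcCGCCATCTTgggccgccgc
The CRE sites lay within 61 bp of a start. The YY1 sites at Ndufc1 and Ndufs7 lay 35 and 25 bp downstream of a start, and those at Uqcrh and Atp5h 293 and 207 bp upstream. YY1 matches were seldom in a footprint: of the open promoters with a match in the window, 4 of 17 members (23.5%) had it in a footprint of both replicates, against 20.1% of all open genes, and for CRE the counts were 4 of 7 members (57.1%) against 63.4%. For YY1 and CRE these shares are near the background.

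**Figure D5:**
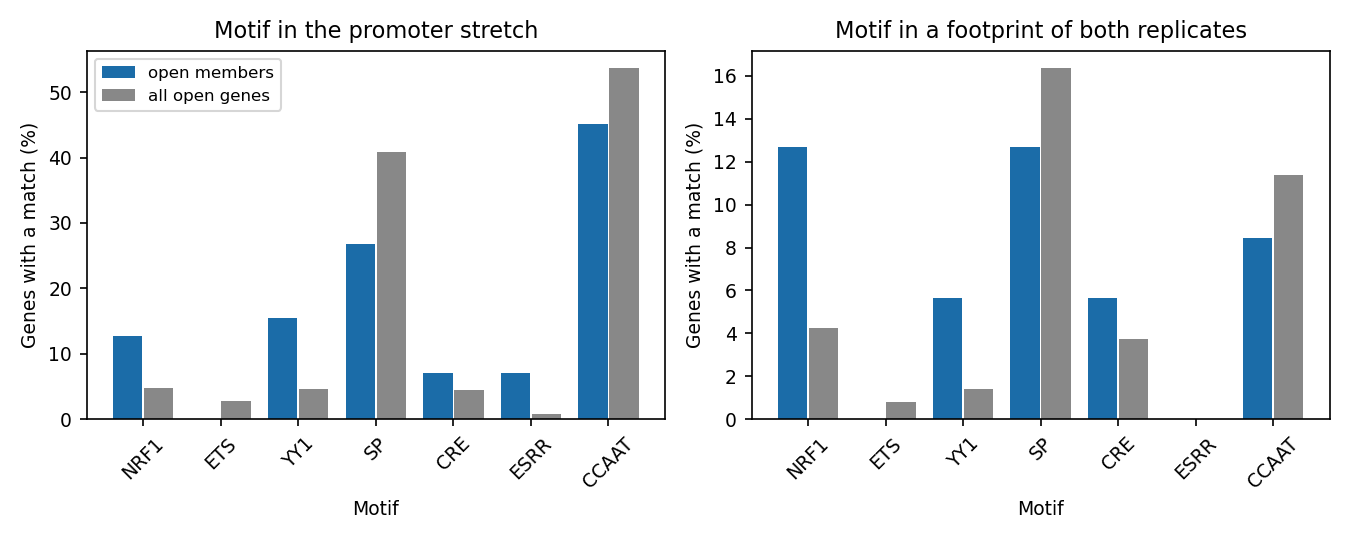
Share of genes (vertical axis, %) with an exact match of each motif (horizontal axis) in the promoter stretch (left) and in a footprint of both replicates (right). Blue bars are the 71 open members and grey bars all 12064 open genes; NRF1, YY1 and CRE are higher in the members in both panels, ESRR in the left panel, and the GC box (SP), the CCAAT box and ETS are lower.

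Genes that work with the subunits showed a like pattern. Of 45 assembly factor genes, whose products help to build the complexes, 43 were open, against 58.2% of all protein-coding autosomal genes. Their median heights were 6.21 and 3.26. Sdhaf1, needed for complex II, had no peak. Tmem70, needed for ATP synthase, had peaks of 2.57 and 1.58 but no overlap of the replicates within 500 bp of a coding start. Cycs, the somatic cytochrome c gene, was open with heights of 8.00 and 3.98, and Cyct, its testis counterpart, had no peak. All 12 regulator genes were open, against the same 58.2%, with median heights of 5.98 and 3.30. They include Nrf1 (5.57 and 3.29) and Tfam (6.74 and 3.39), the factor that packs mitochondrial DNA. Ppargc1a, a coactivator of respiratory genes, was low, with heights of 0.78 and 0.70.

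The 3 subunit genes on the X chromosome, of which these male mice have a single copy, were open but lower. Ndufa1 had heights of 2.51 and 1.37, Ndufb11 had 1.74 and 1.45, and Cox7b, the ubiquitous partner of Cox7b2, had 1.67 and 0.97. All X-linked protein-coding genes with a peak had median heights of 1.71 and 1.19, and 43.9% of 948 were open. The part of copy number in these heights was not tested.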

How the data were processed

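DNase-seq peaks, footprints and false discovery rates were read from the lists deposited for each sample on mm10, per the labels. No label or file header used here names the aligner, the callers or their thresholds. Peak heights are the authors' signal values, whose scaling is not stated, so comparisons of heights between replicates rest on that scaling. The deposited false discovery rates were read as q-values per interval, and the deposited footprints carry a constant p-value of 0.01 and were used by position only. The longer of the 2 deposited peak lists of each sample was used. Depth is unknown, and no interval that needs it is given.

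Shared peaks, promoter windows, heights, percentiles (rank among all genes with a promoter peak) and motif matches were computed with Python 3.11.15 and NumPy 2.4.6 from GENCODE M21 and the GRCm38 genome. Peaks on the 19 autosomes ended within the lengths of that genome. The overlap and motif steps were tested on simulated data. Replicates are those of the labels, and no test was run with 1 group of 2 samples.

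The members and lists were chosen with earlier results of these data known. Genes named are those without an open promoter, the isoforms, complex II, the 3 highest and the lowest of the other complexes by mean percentile, the extremes of footprint number and of replicate ratio, members with NRF1, ETS, YY1, CRE or ESRR in a footprint of both replicates, and the first 10 with a neighbouring start. Others, such as Cox7a2l, Atp5e, Atp5s and the further neighbours, were named after their values were seen. Alternatives changed the window, list, overlap, starts, replicates, footprint extension and the complex of Ndufa4 and Ndufa4l2. RefSeq starts and leaving out the second Atp5o record were added after seeing the data. Sequences from chromosome 18 are not shown, and 1 neighbouring gene is not reported here.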

Additional observations from a re-analysis of the deposited data

How the results depend on the processing

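Of the alternatives run for the main counts and medians, 117 values kept within 1.5 times the main count or within the spread between replicates, and 9 did not. Some of these could not change, such as the counts of complexes I to IV without the second Atp5o record. The spread between replicates is also wide for heights, so the tally does not measure stability. For the counts of single motifs in footprints, 16 values kept within these limits and 12 did not. Without members that have a neighbouring start, 44 of 53 members were open (83.0%, against 53.7% of all genes without one), a smaller count by construction. They included 19 in complex I, 1 in complex II, 5 in complex III and 10 in complex V. With RefSeq starts, which could be matched for 65 of 82 members, 61 members were open (93.8%, against 59.1% of all matched genes) and 5 in complex III, since fewer genes were matched. Tissue-restricted isoforms with an open promoter numbered 1 with a window of 2000 bp (Ndufa4l2), and from 0 to 1 when a replicate was left out, the 1 being Cox7a1 without replicate 2. Members with any of the 5 motifs in a footprint numbered 8 when footprints were not extended. Requiring 50% reciprocal overlap of the peaks left 56 open members (68.3%, against 44.7% of all genes). Heights were not recomputed under that overlap or without a replicate, because they are given per replicate, and their percentiles stand in the report. No paired analysis was possible because there is 1 group. Depth limits low promoters most: a missing peak shows only that none was called in that replicate.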
